A study of Mus musculus with 9 samples.

Results

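Lysosomes are the acidic compartments in which cells break down lipids, glycans and proteins, and their enzymes and membrane proteins are described here in tissue around a photothrombotic brain infarct. The set holds 33 genes, of 55401 in the deposited table, and was defined by name: soluble lysosomal hydrolases with their cofactors, cholesterol carriers and proteins of the lysosomal membrane, cathepsins left out. It was chosen with earlier results of these data known, so counts over the set are descriptions and carry no test. All 33 names matched 1 row each, and all 33 passed the expression filter, which asked for an average of 0.5 FPKM or more across the 9 libraries (FPKM is a read level corrected for gene length and for sequencing depth).

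RNA was sequenced from wild-type mouse brain at day 28 in 9 libraries. In 3 of them, mice with photothrombosis (PT), a stroke model in which an injected dye is lit through the skull so that vessels clot, received the commercial preparation Pushen by gavage from 24 h after surgery. Another 3 were from PT mice given only the vehicle, ultrapure water, and 3 from sham-operated mice given the same water. The labelled Pushen doses were 391, 392 and 393 mg/kg in libraries 1, 2 and 3, which were treated as 1 group. They differ by 1 mg/kg from library to library, and whether they are doses as given is not settled by the sources used here. Sex, age and strain are not used here. Separate animals per library are not stated in the labels, and the p-values therefore refer to the spread between libraries, which may be technical. Total counts ran between 57437342 and 75100133 per library. The labels give the tissue as brain but the extraction protocol names retinas: the 5 neuron markers summed to between 489 and 902 FPKM per library and the 6 photoreceptor markers to between 0.38 and 0.69 FPKM. Some infarct libraries stood apart: choroid plexus markers summed to 544 FPKM in PT library 1 and 624 FPKM in Pushen library 2 but to at most 150 FPKM in any other library, striatal neuron markers summed to 405 FPKM in PT library 1 and to at most 98.4 FPKM elsewhere, and Pushen library 3 had the lowest microglia, macrophage and astrocyte marker sums of the infarct libraries.

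Soluble lysosomal enzymes are made in the endoplasmic reticulum, tagged with mannose 6-phosphate in the Golgi and carried to the lysosome, where a proton pump, the V-ATPase, keeps the lumen acid. Many inherited losses of single members cause storage diseases that damage the brain. In the central nervous system every cell has lysosomes, and phagocytic microglia and macrophages, which clear myelin and dead cells after injury, are rich in them. The transcription factor TFEB and its relatives bind E-box-like elements, known as CLEAR elements, near many lysosomal genes.

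That element has the E-box core CACGTG at its centre, and the core, which reads the same on both strands, was searched in RefSeq promoter windows (GRCm38.p6) reaching from 250 bases before to 50 bases after the annotated start. Windows were given for 29 of the 33 genes, and 8 of these (27.6%) held the core, against 8.09% of all 27025 genes with a window. The 8 were Arsa, Cln3, Gaa, Glb1, Lamp1, Lgmn, Naglu and Sgsh. A gene counted if any of its windows held the core, and 4 of the 29 had more than 1 window. Cln3 and Lgmn each had another window without the core. The following windows, with the core in capitals, are shown because they carry the densest matches (Lamp1 and Cln3) and because Naglu and Gaa hold 1 match each and had very different responses to the infarct.
Lamp1, chr8:13158911-13159210, plus strand: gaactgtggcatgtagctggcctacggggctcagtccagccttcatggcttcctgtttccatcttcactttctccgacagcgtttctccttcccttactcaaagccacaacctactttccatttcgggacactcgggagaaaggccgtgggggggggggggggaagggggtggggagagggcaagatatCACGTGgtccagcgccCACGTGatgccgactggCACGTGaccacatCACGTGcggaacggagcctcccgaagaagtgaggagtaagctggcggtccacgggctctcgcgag
Cln3, chr7:126583187-126583486, minus strand: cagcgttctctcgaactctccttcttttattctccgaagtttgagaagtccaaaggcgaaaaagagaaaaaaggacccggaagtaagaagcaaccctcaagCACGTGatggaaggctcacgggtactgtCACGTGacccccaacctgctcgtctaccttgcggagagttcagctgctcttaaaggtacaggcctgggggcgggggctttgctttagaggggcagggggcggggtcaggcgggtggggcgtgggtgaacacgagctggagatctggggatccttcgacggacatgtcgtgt
Naglu, chr11:101069844-101070143, plus strand: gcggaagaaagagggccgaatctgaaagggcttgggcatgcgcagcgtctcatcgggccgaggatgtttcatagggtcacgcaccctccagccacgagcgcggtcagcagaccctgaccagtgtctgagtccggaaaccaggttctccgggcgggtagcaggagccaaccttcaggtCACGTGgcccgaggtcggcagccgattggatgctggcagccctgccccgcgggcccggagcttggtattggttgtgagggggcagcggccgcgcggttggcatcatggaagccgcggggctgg
Gaa, chr11:119267713-119268012, plus strand: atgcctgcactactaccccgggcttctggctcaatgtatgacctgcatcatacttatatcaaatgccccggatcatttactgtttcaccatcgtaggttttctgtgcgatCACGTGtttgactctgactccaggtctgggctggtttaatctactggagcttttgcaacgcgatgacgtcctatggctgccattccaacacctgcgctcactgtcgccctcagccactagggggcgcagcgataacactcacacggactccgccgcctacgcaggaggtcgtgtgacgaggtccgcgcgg

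Lamp1 held 4 copies of the core, beginning at positions -61, -45, -28 and -15 from the start, and Cln3 held 2, at -149 and -121. The match in Naglu began at -73 and the match in Gaa at -140. The longer 8-base form TCACGTGA, which contains the core, was found in 1 of the 29 genes, Cln3, and in 1.12% of all genes. An 8-base element of the kind bound by the myeloid factor PU.1, GAGGAAGT on either strand, was found in 1 of the 29 genes (3.45%), Gusb. That share was close to the 3.69% of all genes. A core was present in 6 of 21 genes that rose in PT and in 2 of 8 that did not pass, so these letters were found in both. Such matches are descriptions of sequence and not evidence of binding.

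PT was compared with sham to ask how the lysosomal transcripts differed around the infarct. Of the 33 genes, 24 were higher in PT and 0 lower, while 19.1% of all tested genes were higher and 11.8% lower (edgeR's quasi-likelihood test over 16740 genes, Benjamini-Hochberg adjusted p under 0.05). Over all tested genes 3202 were higher and 1974 lower, against 2510 higher and 3490 lower after quantile normalization, under which 22 of the 33 were higher and 0 lower. Without PT library 1 and Pushen library 2, 21 of the 33 and 2454 of all tested genes were higher. Without Pushen library 3 these counts were 24 and 3271. The median log2 fold change of the 33 was 0.78, against -0.0029 over all tested genes, and single genes ranged from -0.15 to 2.80. Every PT library lay above every sham library in 25 of the 33, as in 26.2% of all tested genes. The summed level of the set was 1755.69, 1859.89 and 1309.59 FPKM in Pushen libraries 1, 2 and 3, 2041.03, 1978.69 and 1680.21 FPKM in PT libraries and 977.6, 1038.18 and 1058.83 FPKM in sham libraries. Psap alone made up the larger part of this sum in every library, with 1053 FPKM in PT library 1 and 554 FPKM in sham library 1. In the sum all infarct libraries were above all sham libraries, and Pushen library 3 was the lowest of the infarct libraries.

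**Figure D1:**
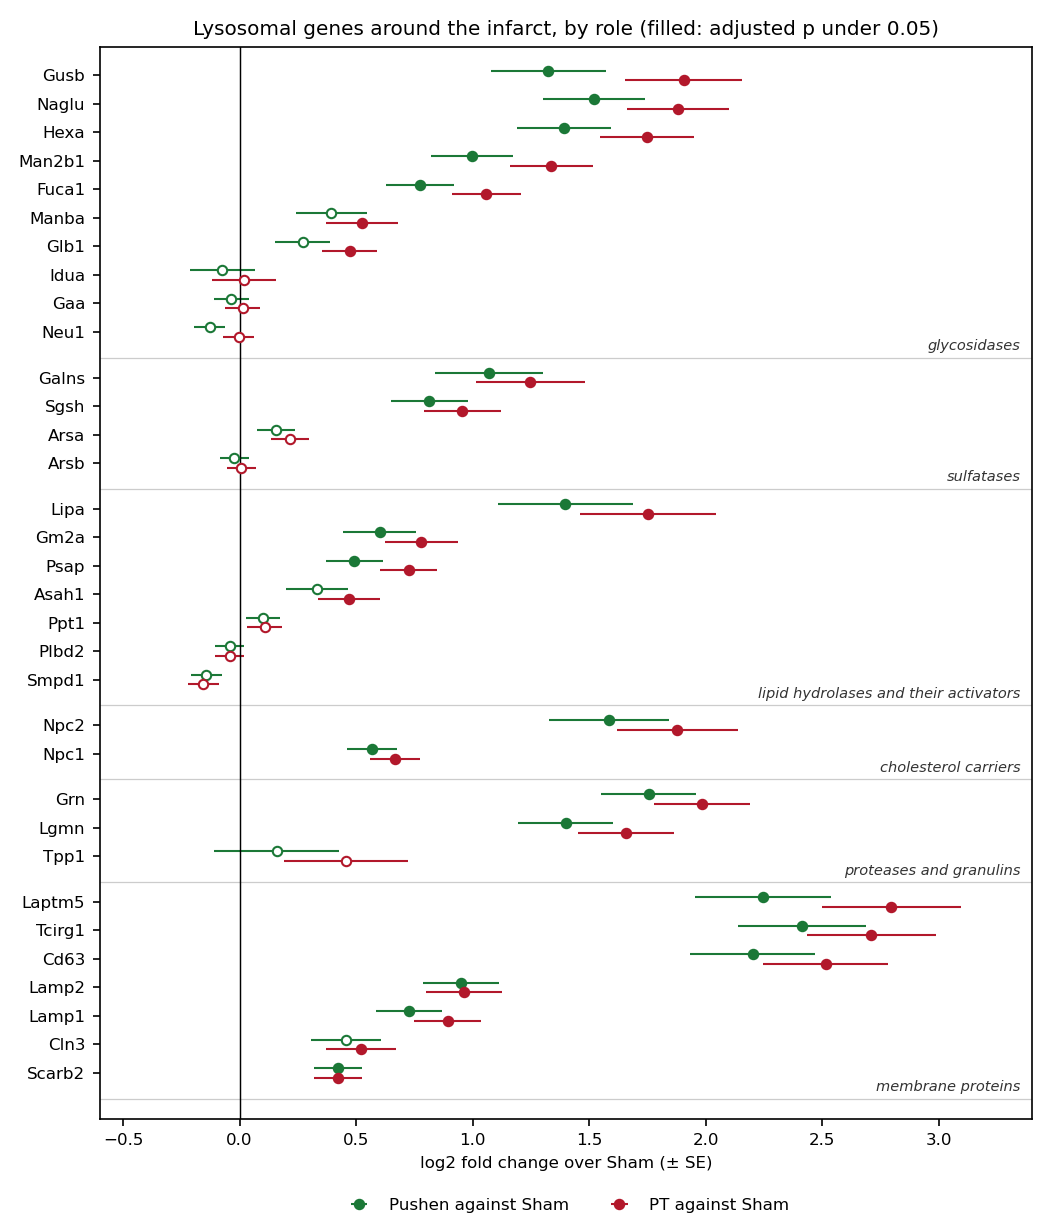
Log2 fold change over sham (x axis, with SE) of the 33 lysosomal genes, grouped by role, for Pushen (green) and PT (red); filled points passed an adjusted p of 0.05. Laptm5, Tcirg1 and Cd63 lie farthest right, between 2.20 and 2.80, and 9 genes have open points in both comparisons.

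Markers of several cell types differed together with these genes. Microglia markers summed to 69.9, 67.5 and 51.9 FPKM in Pushen libraries, 85.4, 77.6 and 60.5 FPKM in PT libraries and 35.6, 23.5 and 31.0 FPKM in sham libraries. Of the 6, Aif1, Tmem119, Csf1r and Itgam rose in PT, whereas P2ry12 and Cx3cr1 did not pass, with log2 fold changes of -0.06 and -0.33. None of the 6 was at 0 in any library, and every infarct library lay above every sham library in the sum. Border and monocyte-derived macrophage markers, chiefly the lysozyme gene Lyz2, summed to 529, 660 and 116 FPKM in Pushen libraries, 544, 613 and 506 FPKM in PT libraries and 3.94, 4.96 and 6.39 FPKM in sham libraries, and none was at 0 in an infarct library. Only 3 of these 6 macrophage markers passed the expression filter. Astrocyte markers summed to 429, 431 and 249 FPKM in Pushen libraries, 595, 502 and 306 FPKM in PT libraries and 86.5, 77.4 and 92.8 FPKM in sham libraries. Oligodendrocyte markers, of which 4 of 5 rose in PT, summed to 662, 596 and 641 FPKM in Pushen libraries, 841, 803 and 435 FPKM in PT libraries and 309, 302 and 415 FPKM in sham libraries, so PT library 3 was close to sham. Endothelial markers, of which 4 of 5 rose in PT, summed to between 51.3 and 51.5 FPKM in Pushen libraries, 47.7 and 64.5 FPKM in PT libraries and 38.2 and 39.5 FPKM in sham libraries. Neuron markers, of which 4 of 5 fell in PT, summed to 616, 609 and 754 FPKM in Pushen libraries, 489, 616 and 633 FPKM in PT libraries and 902, 868 and 813 FPKM in sham libraries. In such bulk tissue more cells of a type and more RNA per cell cannot be told apart, and the part of these markers in the lysosomal differences was not tested.

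Of the proteins of the lysosomal membrane 7 of 7 rose, with a median log2 fold change of 0.96. Laptm5, a membrane protein of lysosomes in blood-derived cells and microglia, had the largest fold of the 33. It stood at 39.7, 44.1 and 19.7 FPKM in Pushen libraries 1, 2 and 3, 62.9, 47.5 and 39.8 FPKM in PT libraries 1, 2 and 3, and 6.54, 6.17 and 8.07 FPKM in sham libraries 1, 2 and 3. All infarct libraries were thus far above sham, and the fitted PT difference was 6.95-fold (log2 2.80 ± 0.30, SE; edgeR adjusted p = 0.000524). Tcirg1, the a3 subunit of the V-ATPase, known from acid secretion by osteoclasts, stood at 13.99, 13.2 and 6.57 FPKM in Pushen libraries, 16.5, 13.5 and 11.1 FPKM in PT libraries and 1.99, 1.78 and 2.22 FPKM in sham libraries. Its groups were likewise apart (PT against sham, 6.55-fold, log2 2.71 ± 0.28, SE; edgeR adjusted p = 0.000467). Cd63, a tetraspanin of late endosomes and exosomes, stood at 57.8, 57.9 and 29.7 FPKM in Pushen libraries, 68.0, 66.2 and 45.0 FPKM in PT libraries and 8.44, 10.04 and 11.7 FPKM in sham libraries. It was 5.71-fold higher in PT (log2 2.51 ± 0.27, SE; edgeR adjusted p = 0.000529). A processed copy, Cd63-ps, had between 592 and 1636 counts in infarct libraries and between 174 and 275 in sham libraries, so a small share of Cd63 reads is uncertain.

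The general lysosomal membrane proteins moved less. Lamp1, a heavily glycosylated protein that lines the lysosomal membrane and the standard lysosome marker, stood at 158, 175 and 123 FPKM in Pushen libraries, 186, 179 and 142 FPKM in PT libraries and 89.4, 81.6 and 91.6 FPKM in sham libraries. Levels in PT and Pushen libraries were all above sham, 1.86-fold in the PT fit (log2 0.89 ± 0.14, SE; edgeR adjusted p = 0.00233). Its relative Lamp2, needed for fusion of autophagosomes with lysosomes, was 1.95-fold higher in PT, Scarb2 (LIMP-2, which carries glucocerebrosidase to the lysosome) 1.34-fold and Cln3, the gene of juvenile Batten disease, 1.43-fold. Scarb2 lost its call without sham library 2 (edgeR adjusted p = 0.0568), and Cln3 without PT library 1 or 2 or any sham library (edgeR adjusted p = 0.0917, 0.0530, 0.0944, 0.0789 and 0.0563 without PT libraries 1 and 2 and sham libraries 1, 2 and 3), and without the expression filter (edgeR adjusted p = 0.0573).

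**Figure D2:**
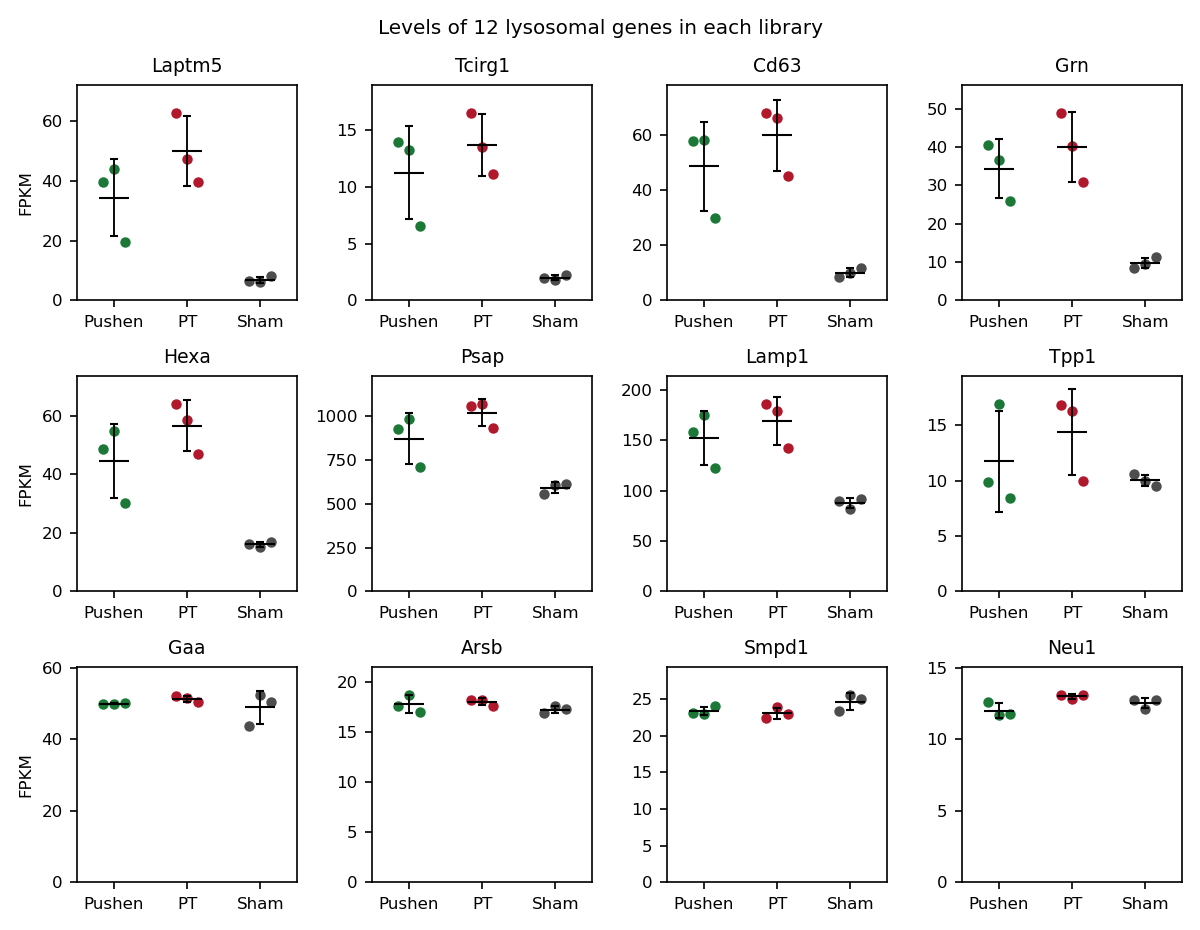
FPKM (y axis, from 0) of 12 lysosomal genes in each library (points) with the group mean and SD (bars) for Pushen, PT and sham. Laptm5 to Lamp1 lie above sham in every infarct library, Tpp1 is split within both infarct groups, and Gaa, Arsb, Smpd1 and Neu1 stay close to their sham level.

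Glycosidases cut sugars from glycoproteins, glycolipids and glycosaminoglycans, and 7 of the 10 rose in PT (median log2 fold change 0.79). Gusb, beta-glucuronidase, had the largest fold among them, at 7.25, 9.03 and 4.24 FPKM in Pushen libraries, 11.7, 10.4 and 8.41 FPKM in PT libraries and 2.36, 2.43 and 3.01 FPKM in sham libraries. Each infarct library exceeded each sham library, and PT was 3.75-fold above sham (log2 1.91 ± 0.25, SE; edgeR adjusted p = 0.00101). Hexa, the alpha subunit of the beta-hexosaminidase that degrades GM2 ganglioside, stood at 48.6, 54.9 and 30.3 FPKM in Pushen libraries, 64.2, 58.7 and 47.1 FPKM in PT libraries and 16.3, 15.3 and 17.01 FPKM in sham libraries. PT was 3.36-fold above sham for Hexa (log2 1.75 ± 0.20, SE; edgeR adjusted p = 0.000632), with no overlap between infarct and sham libraries. Of the exon bases of Hexa, 12.8% also belong to Tmem202 on the opposite strand. Naglu, which acts on heparan sulfate, was 3.68-fold higher in PT, the alpha-mannosidase Man2b1 2.53-fold and the alpha-fucosidase Fuca1 2.08-fold. Fuca1 stood at 11.9, 13.5 and 9.93 FPKM in Pushen libraries, 16.7, 14.6 and 11.5 FPKM in PT libraries and 6.38, 6.74 and 6.61 FPKM in sham libraries, so that its infarct libraries were all above sham as well.

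Smaller differences were found for Manba, beta-mannosidase (1.44-fold), and Glb1, the acid beta-galactosidase used as a senescence stain (1.39-fold). The call of Manba was lost without PT library 1 or 2 or sham library 1 or 2 (edgeR adjusted p = 0.0677, 0.0961, 0.0772 and 0.103), and without the expression filter (0.0625), and that of Glb1 without PT library 2 or sham library 1 (edgeR adjusted p = 0.0508 and 0.0612). Gaa, the acid alpha-glucosidase that degrades glycogen and is lost in Pompe disease, was the most highly expressed glycosidase in sham and did not pass. It stood at 49.9, 49.8 and 50.1 FPKM in Pushen libraries, 52.0, 51.6 and 50.3 FPKM in PT libraries and 43.7, 52.5 and 50.6 FPKM in sham libraries, and the groups overlapped (PT against sham, log2 0.01 ± 0.08, SE, 95% interval from -0.16 to 0.18; edgeR adjusted p = 0.909). Neu1, the lysosomal sialidase, stood at 12.6, 11.7 and 11.7 FPKM in Pushen libraries, 13.1, 12.8 and 13.1 FPKM in PT libraries and 12.7, 12.1 and 12.7 FPKM in sham libraries, an estimate of log2 -0.0044 ± 0.07 (SE, 95% interval from -0.15 to 0.15; edgeR adjusted p = 0.969). Idua, alpha-L-iduronidase, did not pass either (log2 0.02 ± 0.14, SE; edgeR adjusted p = 0.933). Among the 7 genes that rose, the 95% interval ran from 0.21 to 0.74 for Glb1 and from 0.179 to 0.872 for Manba. The lower end for Manba lay below the upper bound of 0.184 for Gaa. Those 7 were picked by this same contrast, so setting them beside the others is no test.

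Sulfatases remove sulfate groups and need a modified cysteine made by the enzyme SUMF1. Of 4, Galns, which acts on keratan sulfate (2.38-fold), and Sgsh, the heparan sulfamidase (1.94-fold), rose in PT, although 21.6% of the exon bases of Sgsh also belong to Card14 on the opposite strand. Arsa, which degrades the myelin lipid sulfatide, stood at 7.50, 7.91 and 8.15 FPKM in Pushen libraries, 8.67, 8.17 and 7.61 FPKM in PT libraries and 6.80, 6.91 and 6.50 FPKM in sham libraries. Although all infarct libraries lay above sham, it did not pass (log2 0.22 ± 0.08, SE; edgeR adjusted p = 0.0714). Arsb, which acts on dermatan and chondroitin sulfate, stood at 17.7, 18.8 and 16.99 FPKM in Pushen libraries, 18.3, 18.3 and 17.7 FPKM in PT libraries and 16.95, 17.6 and 17.3 FPKM in sham libraries (PT against sham, log2 0.01 ± 0.06, SE; edgeR adjusted p = 0.948). Exon bases of Arsb are shared with other genes to 39.9% and those of Arsa to 18.8%, mostly with noncoding genes on the opposite strand, and whether reads were counted by strand is not given in the sources used here.

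Lipid hydrolases and their activator proteins were divided. Psap encodes prosaposin, the precursor of the saposins that present sphingolipids to their hydrolases, and had by far the highest level. It stood at 924, 980 and 707 FPKM in Pushen libraries, 1053, 1069 and 930 FPKM in PT libraries and 554, 607 and 611 FPKM in sham libraries. Every infarct library was above sham, and the PT estimate was 1.65-fold (log2 0.73 ± 0.12, SE; edgeR adjusted p = 0.00299). Lipa, the acid lipase that frees cholesterol from its esters, was 3.37-fold higher in PT, Gm2a, the activator that lifts GM2 ganglioside out of membranes for beta-hexosaminidase, 1.72-fold, and Asah1, acid ceramidase, 1.38-fold. Asah1 lost its call without PT library 1 or 2 or sham library 2 or 3 (edgeR adjusted p = 0.0850, 0.0868, 0.0791 and 0.0879), and without the expression filter (edgeR adjusted p = 0.0551).

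The remaining 3 lipid genes did not pass. Smpd1, acid sphingomyelinase, was the gene with the lowest estimate of the set, at 23.1, 23.0 and 24.1 FPKM in Pushen libraries, 22.4, 23.9 and 22.9 FPKM in PT libraries and 23.4, 25.6 and 25.1 FPKM in sham libraries. Its PT and sham libraries overlapped in FPKM but not after library scaling, where every PT library was below every sham library (log2 -0.15 ± 0.06, SE; edgeR adjusted p = 0.1001), and DESeq2 gave an adjusted p of 0.0380. Ppt1, the palmitoyl thioesterase of infantile Batten disease, stood at 30.8, 31.0 and 28.0 FPKM in Pushen libraries, 30.8, 30.1 and 28.7 FPKM in PT libraries and 24.2, 28.2 and 27.6 FPKM in sham libraries (log2 0.11 ± 0.07, SE; edgeR adjusted p = 0.304). Plbd2, a phospholipase B-like protein, stood at 18.6, 18.6 and 18.8 FPKM in Pushen libraries, 18.0, 19.2 and 18.5 FPKM in PT libraries and 17.5, 19.2 and 18.5 FPKM in sham libraries (log2 -0.04 ± 0.06, SE; edgeR adjusted p = 0.639).

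Both cholesterol carriers rose. Npc2, the soluble protein that takes cholesterol from inner membranes, stood at 26.1, 28.8 and 13.97 FPKM in Pushen libraries, 34.1, 27.4 and 22.2 FPKM in PT libraries and 7, 6.55 and 8.32 FPKM in sham libraries. For Npc1, the membrane protein that exports it, the levels were 9.74, 9.34 and 7.49 FPKM in Pushen libraries, 9.69, 9.95 and 8.62 FPKM in PT libraries and 5.27, 5.58 and 6.26 FPKM in sham libraries. Infarct and sham libraries did not overlap for either, with PT estimates of 3.68-fold for Npc2 (log2 1.88 ± 0.26, SE) and 1.59-fold for Npc1 (log2 0.67 ± 0.11, SE), and edgeR adjusted p-values of 0.00123 and 0.00256.

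Among the proteases and granulins, Grn encodes progranulin, a secreted and lysosomal protein whose loss causes frontotemporal dementia and, in full deficiency, a storage disease. It stood at 40.5, 36.7 and 25.9 FPKM in Pushen libraries, 49.0, 40.3 and 30.8 FPKM in PT libraries and 8.51, 9.40 and 11.2 FPKM in sham libraries, 3.96-fold higher in PT than in sham with no overlap (log2 1.99 ± 0.21, SE; edgeR adjusted p = 0.000489). Lgmn, legumain, an asparaginyl endopeptidase that processes cathepsins, stood at 113, 115 and 66.1 FPKM in Pushen libraries, 137, 117 and 94.6 FPKM in PT libraries and 35.2, 34.7 and 36.1 FPKM in sham libraries. It was 3.15-fold higher in PT (log2 1.66 ± 0.21, SE; edgeR adjusted p = 0.000791), and its infarct and sham libraries did not overlap. Tpp1, the tripeptidyl peptidase of late infantile Batten disease, is described although its values were seen first. It stood at 9.87, 16.9 and 8.44 FPKM in Pushen libraries, 16.9, 16.3 and 9.92 FPKM in PT libraries and 10.6, 9.99 and 9.55 FPKM in sham libraries. PT libraries 1 and 2 and Pushen library 2 were thus high while the other infarct libraries were near sham, and the gene did not pass (PT against sham, log2 0.46 ± 0.27, SE; edgeR adjusted p = 0.223).

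Across the set the 9 genes that did not pass had summed levels between 169 and 180 FPKM in Pushen libraries, 171 and 183 FPKM in PT libraries and 159 and 175 FPKM in sham libraries. The 24 that rose summed to between 1141.03 and 1679.53 FPKM in Pushen libraries, 1508.8 and 1857.87 FPKM in PT libraries and 819.02 and 888.72 FPKM in sham libraries, and Psap was the larger part of the sum in every library. Since the genes were split by this same contrast, these sums describe the split and carry no test. Sgsh and Gaa, which both lie on chromosome 11 (119343425 to 119355536 and 119267887 to 119285454 in GRCm38), were on different sides of it.

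**Figure D3:**
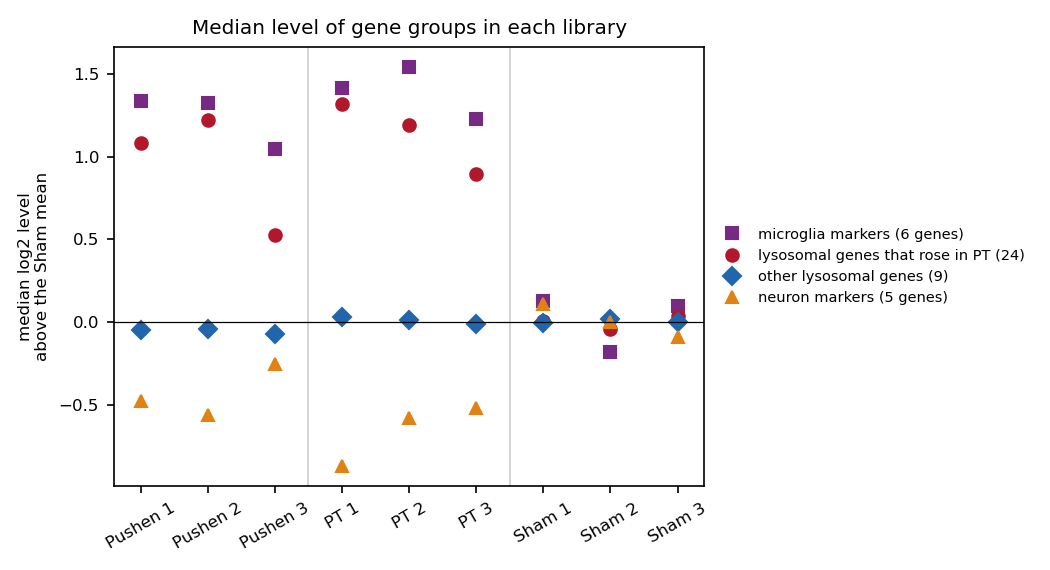
Median log2 level above the sham mean (y axis) in each library for the lysosomal genes that rose in PT, those that did not pass, and microglia and neuron markers. The median of the 24 genes lies between 0.53 and 1.32 in the infarct libraries, lowest in Pushen library 3. That of the 9 others stays between -0.07 and 0.03 in all infarct libraries, although single genes vary more, such as Tpp1 from -0.30 to 0.69.

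Other lysosomal genes, in lists of their own, gave a frame for these values in PT against sham, where 19.1% of all tested genes were higher and 11.8% lower. Cathepsins, the main lysosomal proteases, rose in 10 of 11 tested cases with a median log2 fold change of 2.48, with Ctsc at 2.90 ± 0.28 (SE) and Ctss at 3.64 ± 0.35 (SE). Of 20 other hydrolases, 13 rose and 1, the iduronate sulfatase Ids (-0.38 ± 0.09, SE), fell, with a median of 0.74. Among them the phospholipase Pla2g15 rose by 0.99 ± 0.11 (SE), and Acp5, the tartrate-resistant acid phosphatase, stood at 4.80, 5.85 and 1.6 FPKM in Pushen libraries, 5.90, 5.88 and 4.90 FPKM in PT libraries and 0.04, 0.02 and 0.16 FPKM in sham libraries. Of 14 further membrane proteins 5 rose and 1 fell, with a median of -0.15: Cd68 (3.97 ± 0.38, SE), the metal transporter Slc11a1 (3.82 ± 0.42, SE), Laptm4a (0.67 ± 0.09, SE), the cystine exporter Ctns (0.42 ± 0.09, SE) and the chloride exchanger Clcn7 (0.27 ± 0.08, SE) rose, and Tmem106b fell by 0.41 ± 0.07 (SE). Clcn7 lost its call without any 1 of PT libraries 1, 2 and 3, Pushen library 1 or sham libraries 1, 2 and 3 (edgeR adjusted p between 0.0547 and 0.119). Slc11a1, Laptm4a, Ctns, Clcn7, Tmem106b and Ids are named because they make up small counts and were chosen after their values were seen.

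Tcirg1, the a3 subunit of the V-ATPase, is counted among the 33 genes and rose (2.71 ± 0.28, SE). Of the 19 other V-ATPase subunits listed, 9 fell, 2 rose and 8 did not pass, with a median of -0.34. Among all tested genes 11.8% were lower and 19.1% higher. The risers were Atp6v0e (0.79 ± 0.12, SE), named after its values were seen, and Atp6v0d2, the d2 subunit known from osteoclasts and macrophages, at 13.4, 17.9 and 2.91 FPKM in Pushen libraries, 11.97, 15.5 and 10.5 FPKM in PT libraries and 0, 0.05 and 0.10 FPKM in sham libraries. Atp6v1a, the catalytic subunit, also chosen after its values were seen, stood at 64.5, 61.2 and 67.7 FPKM in Pushen libraries, 40.7, 57.8 and 61.8 FPKM in PT libraries and 78.1, 78.3 and 72.4 FPKM in sham libraries (PT against sham, -0.57 ± 0.15, SE; edgeR adjusted p = 0.0186), and lost its call without sham library 1 or 2 (edgeR adjusted p = 0.0623 and 0.0560). Without sham library 1 or sham library 2 the count of falling subunits was 3, with 782 and 1000 of all tested genes lower. Under quantile normalization 7 fell and 3 rose, with 3490 of all tested genes lower and 2510 higher. Neuron markers fell beside these subunits in PT, in 4 of 5 cases, and their part was not tested.

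Genes that tag, deliver or control the enzymes were counted beside all tested genes, of which 19.1% were higher and 11.8% lower in PT. Of 10 genes of tagging and delivery 3 rose, with a median of 0.21: Nagpa, which uncovers the mannose 6-phosphate tag (0.72 ± 0.16, SE), Sumf1, which activates sulfatases (0.45 ± 0.09, SE), and the cation-dependent mannose 6-phosphate receptor M6pr (0.33 ± 0.09, SE), named after its values were seen. M6pr lost its call without PT library 1 or sham library 1 or 3 (edgeR adjusted p = 0.0546, 0.0716 and 0.0572). Of 14 tested transcription factors and mTORC1 regulators 2 rose and 1 fell, with a median of 0.01. Tfeb stood at 2.35, 2.13 and 1.40 FPKM in Pushen libraries, 2.90, 2.97 and 2.11 FPKM in PT libraries and 0.72, 0.91 and 1.34 FPKM in sham libraries, a log2 fold change in PT of 1.36 ± 0.26 (SE; edgeR adjusted p = 0.00529), while its relatives Tfe3 (0.19 ± 0.08, SE) and Mitf (-0.66 ± 0.49, SE) did not pass. The scaffold subunit Lamtor1 rose (0.34 ± 0.07, SE) and Rptor fell (-0.29 ± 0.09, SE), but Rptor lost its call without each library but PT library 3 (edgeR adjusted p between 0.0531 and 0.105). Tfe3, Mitf, Lamtor1 and Rptor were chosen after their values were seen.

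**Figure D4:**
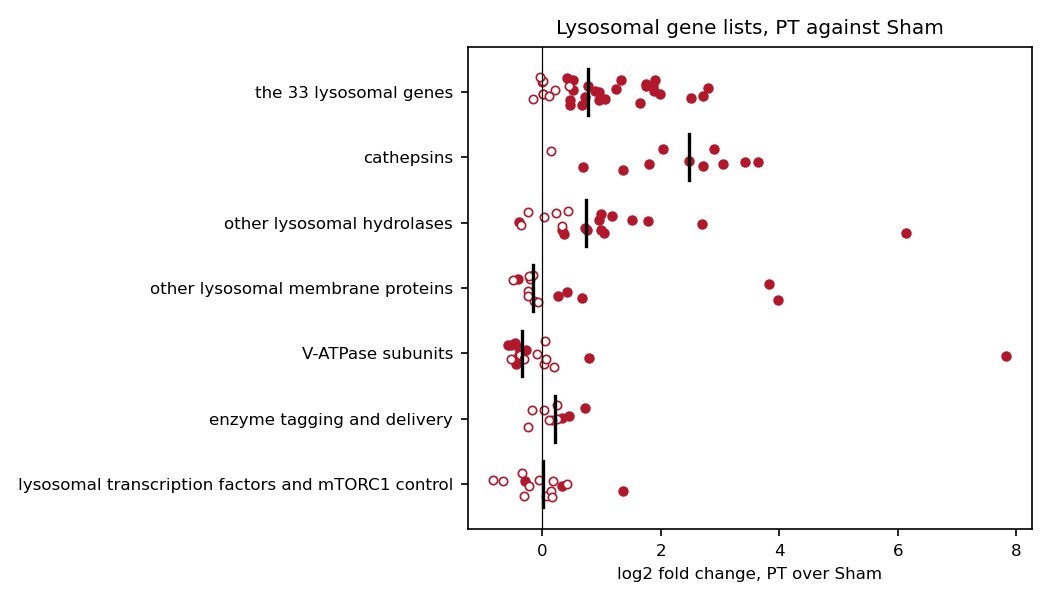
Log2 fold change of PT over sham (x axis) for each gene (points, filled where the adjusted p was under 0.05) in the 33 lysosomal genes and 6 further lists, with the median of each as a bar. The cathepsin median lies at 2.48, that of the 33 genes at 0.78 and that of the V-ATPase subunits, Tcirg1 left out, at -0.34.

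Pushen-treated infarcts were set against sham to see which of these genes differed there. Of the 33 genes 20 were higher and 0 lower, against 13.5% of all tested genes higher and 2.73% lower (edgeR's quasi-likelihood test, adjusted p under 0.05), with a median log2 fold change of 0.60 against -0.01 over all tested genes. Those shares are 2261 genes higher and 457 lower, against 1693 and 1129 after quantile normalization, where 18 of the 33 were higher and 0 lower. Without PT library 1 and Pushen library 2, 16 of the 33 and 1678 of all tested genes were higher. Without Pushen library 3 these counts were 23 and 2460. This comparison shares the sham libraries with PT against sham, so the 2 are given side by side only. The largest values in Pushen against sham were Tcirg1 (2.41 ± 0.27, SE), Laptm5 (2.25 ± 0.29, SE), Cd63 (2.20 ± 0.27, SE) and Grn (1.76 ± 0.20, SE). Glb1, Manba, Asah1 and Cln3 did not pass in Pushen against sham, at 0.27 ± 0.12, 0.39 ± 0.15, 0.33 ± 0.13 and 0.45 ± 0.15 (SE). Several passes were lost when a library was left out, although the estimates stayed positive. Psap (0.49 ± 0.12, SE), Gm2a (0.60 ± 0.16, SE) and Scarb2 (0.42 ± 0.10, SE) each lost the call without Pushen library 1 or 2 or any sham library (edgeR adjusted p between 0.0524 and 0.110), Galns without Pushen library 1 or 2 or sham library 1 or 3 (edgeR adjusted p between 0.0529 and 0.0570), and Lipa without sham library 2 (edgeR adjusted p = 0.0512). In those fits the log2 fold changes of Psap ran between 0.40 and 0.51, of Gm2a between 0.46 and 0.64, of Scarb2 between 0.32 and 0.46 and of Galns between 0.90 and 1.08, and that of Lipa was 1.37. In the other direction, without Pushen library 3 Glb1, Manba and Cln3 passed (edgeR adjusted p = 0.0373, 0.0357 and 0.0145). Cln3 also passed without PT library 1, and Asah1 without PT library 3 (edgeR adjusted p = 0.0492 and 0.0433).

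Pushen was compared with PT to ask whether the treatment changed these transcripts. No gene of the set passed edgeR's quasi-likelihood test, where 0% of all tested genes did, and DESeq2 called 0 of the 33 and 48 genes in all. At an unadjusted p under 0.05 stood 1 of the 33, Gusb, against 1086 of all 16740 genes. Estimates were negative in 31 of the 33, and in 8653 of all 16740 tested genes. The median of the 33 was -0.18 against -0.01 over all tested genes, with a range from -0.58 to 0.01. Without Pushen library 3 the median of the 33 was -0.05. Gusb had the smallest p (log2 -0.58 ± 0.24, SE, 95% interval from -1.13 to -0.03), and the levels given above were apart for PT libraries 2 and 1 but not for PT library 3, which lay below Pushen library 2. Fuca1 followed (-0.29 ± 0.15, SE, 95% interval from -0.61 to 0.04) and then Laptm5 (-0.55 ± 0.28, SE, 95% interval from -1.18 to 0.08), with edgeR adjusted p-values of 0.707 for each of the 3. Every Pushen library lay below every PT library in 2 of the 33, Gaa and Neu1, against 5.97% of all tested genes. Their estimates were small, at -0.05 ± 0.08 (SE, 95% interval from -0.22 to 0.12) for Gaa and -0.12 ± 0.07 (SE, 95% interval from -0.27 to 0.03) for Neu1.

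**Figure D5:**
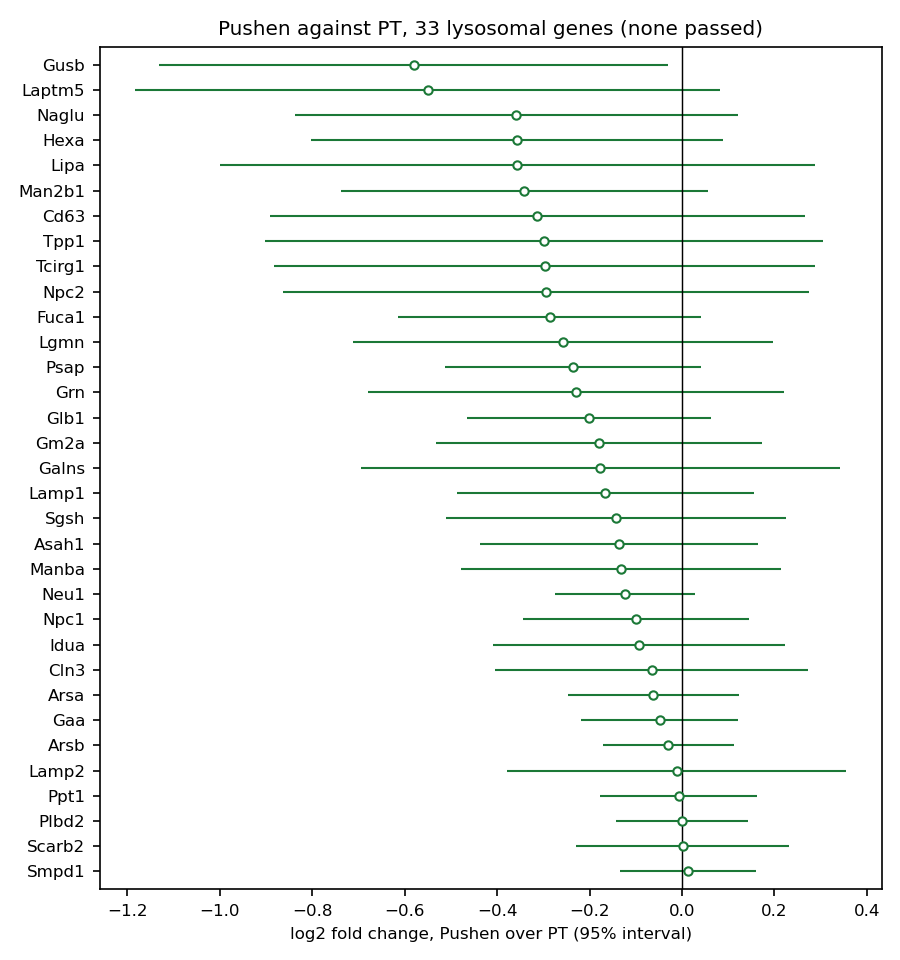
Log2 fold change of Pushen over PT (x axis) with its 95% interval for each of the 33 lysosomal genes, ordered by the estimate. The estimates run from -0.58 for Gusb to 0.01 for Smpd1, and the interval of Gusb is the 1 that does not reach 0.

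The lower Pushen values shrank most toward PT when Pushen library 3 was left out. Pushen library 3 was the lowest of the 6 infarct libraries in 27 of the 33 genes, and in 21.2% of all tested genes, whereas PT library 1 was the highest in 21 of the 33, and in 27.3% of all tested genes, and was also the library with the high striatal neuron sum. The median log2 fold change of Pushen against PT was -0.19, -0.28 and -0.05 without Pushen libraries 1, 2 and 3. Without PT libraries 1, 2 and 3 it was -0.12, -0.15 and -0.28. Beside this, Pushen library 3 had the lowest microglia, macrophage and astrocyte sums and the highest neuron sum of the infarct libraries, as given above, with Lyz2 at 113 FPKM, against 522 and 653 FPKM in the other Pushen libraries and between 499 and 606 FPKM in PT libraries. Whether these marker differences account for the lower lysosomal levels was not tested.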

How the data were processed

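Total RNA of the 9 brain libraries was prepared with Illumina's TruSeq RNA chemistry, as the labels' protocols state. The authors deposited read counts and FPKM for each gene, per the file headers. Bowtie 0.12.2 and mm8 are listed, without a role, in the submitters' processing notes. What counted the reads, and whether by strand, is not given in the sources used here. Yet the coordinates match GRCm38 (start and end equal to GENCODE M21 for 51957 of 55141 shared identifiers and 29 of the 33 genes). Each of the 18 columns of values names 1 library.

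The counts of 16740 genes averaging 0.5 FPKM or more entered a single edgeR 4.0.16 model of all 3 groups (R 4.3.3), with TMM scaling. The quasi-likelihood test was adjusted by Benjamini-Hochberg within each comparison. SE is the log2 fold change divided by the root of F, and intervals are 95% intervals from the same fit. Log2 levels used a prior count of 0.5. Exact permutation of 3 against 3 libraries cannot reach 0.05 and was not used. The pipeline was tested on simulated data.

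All 33 genes are named. Values per library are given for the 5 largest and 3 smallest folds in PT against sham, the 2 highest levels per role and the 3 smallest p-values in Pushen against PT, 19 genes in all, and for Tpp1, chosen after its values were seen. From each other list the genes of smallest p and largest change are named. The members, roles and lists were chosen with earlier results of these data known.

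Alternatives were other filters and scalings, DESeq2 1.42.0, limma 3.58.1 on log2(FPKM + 0.1) and log2(FPKM + 1), a replicate block, only the compared groups, and omission of libraries. Quantile normalization, with a prior count of 2, was added after the data were seen. Promoter windows are from RefSeq (GRCm38.p6). Figures used matplotlib 3.10.9 in Python 3.11.15.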

Additional observations from a re-analysis of the deposited data

How the results depend on the processing

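Under all alternatives run, including each library left out, between 20 and 25 of the 33 genes were higher in PT against sham and between 16 and 23 in Pushen against sham, and none passed in Pushen against PT. Over all genes tested in those fits, between 2365 and 3603 were higher in PT against sham and between 1431 and 2802 in Pushen against sham. DESeq2 called 1 gene lower in PT, Smpd1 (adjusted p = 0.0380), and called Arsa higher (adjusted p = 0.0386), as did edgeR scaled by library size only (0.0303). Arsa was also called higher by limma on FPKM with pseudocounts 0.1 and 1 (adjusted p = 0.0295 and 0.0303). In Pushen against sham, Cln3 passed with DESeq2 (adjusted p = 0.0348) and Asah1 with only the compared groups (edgeR adjusted p = 0.0495). With a replicate block 23 and 20 of the 33 genes were higher, beside 2814 and 1866 of all tested genes. Manba lost its call in PT against sham (edgeR adjusted p = 0.0553), and the block changed no other call of the 33. Same-numbered libraries did not deviate together (r between -0.228 and 0.0729). Quantile normalization gave 22 and 18, with all tested genes at 2510 higher and 3490 lower and their median at -0.14 in PT and -0.12 in Pushen against sham, so that the 33 genes' median in PT stood 0.92 above it. Over all tested genes, the count of lower calls in Pushen against sham was 457, against 84 to 1168 with 1 library left out, 1239 with only the compared groups, 1104 with DESeq2, 242 with the replicate block, 239 by library size and 219 and 225 in the FPKM fits; in PT against sham it was 1974, against 782 to 2441 with 1 library left out and 1011 without PT library 1 and Pushen library 2. Calls lost in PT against sham under other settings were Manba and Cln3 after quantile normalization (adjusted p = 0.155 and 0.132), Manba, Asah1 and Cln3 without the expression filter (0.0625, 0.0551 and 0.0573) and without PT library 1 and Pushen library 2 (0.0772, 0.112 and 0.0956), and in Pushen against sham Gm2a without the filter (0.0521), Galns and Sgsh after quantile normalization (0.0587 and 0.0535), and Galns, Psap, Gm2a and Scarb2 without PT library 1 and Pushen library 2 (0.0632, 0.0803, 0.0856 and 0.0642). Genes near 0 in PT changed sign. Neu1 was 0.056 with library size only, 0.0076 at a filter of 1 FPKM, 0.053 and 0.049 on FPKM with pseudocounts 0.1 and 1, 0.0083 after quantile normalization and between -0.034 and 0.019 with 1 library left out. Plbd2 was 0.017, 0.014 and 0.013 with library size and the FPKM fits and 0.056 after quantile normalization. Without a filter Gaa, Idua and Arsb were -0.013, -0.0089 and -0.020. Idua was -0.22 after quantile normalization, -0.084 without PT library 1 and Pushen library 2, and between -0.084 and 0.11 with 1 library left out, and Gaa between -0.050 and 0.060. The cause was not tested. Counts of the 33 genes ran between 359 and 251023 per library, and groups of 3 libraries limit the precision.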
